A study of Homo sapiens with 8 samples.

Results

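TIAR-expressing cells were compared with TIA1-expressing cells, that is, 2 GFP-TIAR arrays against 2 GFP-TIA1 arrays, which are 4 of the 8 arrays of the series. All lines were FT293 cells, a derivative of HEK293 human embryonic kidney cells made with the Flp-In T-REx system. In this system a transgene enters at a single recombination site and is switched on with tetracycline. All lines carried a transgene and had tetracycline until RNA was taken on the third day. The transgenes coded for GFP-TIAR, GFP-TIA1, GFP-HuR or GFP alone, and the endogenous genes for the 3 RNA-binding proteins were still present. Whether a line was a single clone, and whether its 2 replicates came from separate cultures, is not stated in the sources used here, so p-values measure only the spread between arrays. For the second TIA1 array 1 label field reads GFP-TIA2, while its other fields read GFP-TIA1, which was used. Of the 50599 probes other than controls, 28016 with 20755 gene names were tested, namely those that the scanner software marked as well above background on both TIAR arrays, on both TIA1 arrays or on all 4.

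TIA1 and TIAR (gene TIAL1) are paralogous proteins with RNA recognition motifs followed by a glutamine-rich domain. They bind U-rich RNA, help the splicing machinery to use weak 5′ splice sites and, in the cytoplasm, hold back the translation of mRNAs with AU-rich elements and gather in stress granules. HuR (gene ELAVL1) binds similar sequences and often stabilizes the mRNA. The comparison shows where cells with more of either TIA protein differ in their RNA.

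The probes are 60 bases long, and 3 of them are shown first. The TIAL1 probe is shown because it reports the RNA of the expressed protein. It maps to chr10:121336676-121336982 on the minus strand of hg19, an interval of 307 bases, so it crosses an exon junction. The probes of MAGEA12 at chrX:151899912-151899971 on the minus strand and of MAGEA6 at chrX:151870169-151870228 on the plus strand belong to cancer-testis antigens that were called higher in TIAR-expressing cells. They are shown because they target near-identical genes, with 28 identical bases in an overlap of 31, and capitals mark the 3 bases that differ.
TIAL1: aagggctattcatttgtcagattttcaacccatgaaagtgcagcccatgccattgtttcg
MAGEA12: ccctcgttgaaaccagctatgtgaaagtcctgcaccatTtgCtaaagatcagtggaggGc
MAGEA6: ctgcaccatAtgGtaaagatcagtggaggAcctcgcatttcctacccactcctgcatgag

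Signals are given on the log2 scale relative to the 75th percentile of each array, and differences are log2 values of TIAR-expressing minus TIA1-expressing cells. A probe was called at a difference of at least 2-fold and an adjusted p under 0.05 (limma). The 8 arrays lay on 1 slide, and no spot was saturated (0 on every array). On 7 arrays, 53.2% to 58.5% of probes exceeded the background well. The GFP 1 array stood apart with 86%, so GFP 2 is also given alone. The TIA1 arrays lay in the first row of the slide and the TIAR arrays in the second, so row and line cannot be told apart. GFP 2, in the row of TIA1, and the HuR arrays, in the row of TIAR, are given beside the main results. The HEK293 markers NEFL, NEFM, INA, VIM, KRT8, KRT18, PAX2 and LHX1 were well above background on all 4 arrays, with differences from -0.86 to 0.57, none of which was called. Of the markers of other cell types, KRT5, KRT14, PECAM1, TTR, TYR and MLANA were above it on 0 of the 4. CD3E was above it on 1, and none of these was tested. The others were tested and not called, with PMEL the brightest at -1.45 to -1.11.

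TIAL1 RNA was higher in TIAR-expressing cells. Its probe read 4.87 and 4.98 on the TIAR arrays, 1.63 and 1.74 on the TIA1 arrays, 2.46 and 2.52 on the HuR arrays, and 2.05 and 2.47 on the GFP arrays. The TIAR arrays lay above all others, and the TIA1 arrays lay below those of HuR and GFP. The difference was 3.24 (standard error 0.12, adjusted p = 0.00755, limma), a fold of 9.46. A dim second TIAL1 probe, of the transcript ENST00000369086, differed by 0.19 (adjusted p = 0.591). The files do not say whether it lies in the part that the transgene carries. The brighter TIA1 probe read -1.26 and -0.94 on the TIA1 arrays and -1.25 and -1.004 on the TIAR arrays, a difference of -0.03 (adjusted p = 0.937), with overlapping arrays. The other TIA1 probe read -0.94 and -0.995 on the TIA1 arrays and -1.77 and -1.36 on the TIAR arrays, a difference of -0.60 (adjusted p = 0.137). On this probe both TIA1 arrays lay above both TIAR arrays, but the difference was not called. The brighter TIA1 probe read -0.61 and -0.56 on the HuR arrays and -0.32 and -0.74 on the GFP arrays. The other TIA1 probe read -0.04 and 0.06 on the HuR arrays and -0.05 and 0.17 on the GFP arrays. On both probes all arrays of both TIA lines lay below all HuR and GFP arrays. Since the TIA1 probes could not be placed inside or outside the transgene's part, they do not check the label. ELAVL1 differed by 0.44 (adjusted p = 0.482). In cultured cells, as in any bulk sample, fewer cells with an RNA and less of it per cell cannot be told apart.

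Limma called 324 gene names higher (1.56% of those tested) and 285 lower (1.37%) in TIAR-expressing than in TIA1-expressing cells, with 0 gene names called both ways. Of the genes tested, 1079 passed the filter through TIAR-expressing cells only and 275 through TIA1-expressing cells only. The filter thus let in more genes that could be called higher. Limited to probes well above background on all 4 arrays, the counts were 204 higher and 272 lower. Among all probes tested, 1225 (4.37%) were at least 2-fold apart, and the median absolute difference was 0.22. The share past 2-fold was 1.13% between the TIA1 arrays and 1.45% between the TIAR arrays, over probes well above background on both. It was 4.76% between the replicate 1 arrays of the lines and 3.26% between the replicate 2 arrays. The lines were therefore farther apart than their replicates. The calls rested on every array, since limma called 18 gene names higher and 4 lower without TIA1 replicate 1, 22 and 7 without TIA1 replicate 2, 8 and 1 without TIAR replicate 2, and 0 and 0 without TIAR replicate 1, where 4584 probes had an unadjusted p under 0.05. Of the 72 called genes that the naming rule gives, 55 kept the call with normexp background correction, 57 with the authors' values, 66 with quantile normalization and 50 with all 8 arrays in the fit. The number was 0 with dim probes kept, with the replicate block and without TIAR replicate 1, and 13, 16 and 4 without TIA1 replicate 1, TIA1 replicate 2 and TIAR replicate 2. None of these genes (0) changed direction under any alternative. They were picked by their difference on the same arrays, so a change of direction was unlikely from the start. The replicate block and the fit to all 8 arrays alter the p-value and not the difference between the line means. With all 8 arrays in the fit, the calls lost included those of MAGEA12, MAGEA6, MAGEH1, C1orf172, CHRM2, CHRM3, DIS3, HSPA13, HIST1H2BM, WIF1, WNT5A, DCN, FOXQ1, PPP1R3G, OASL and XLOC_002713, which are described below.

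**Figure D1:**
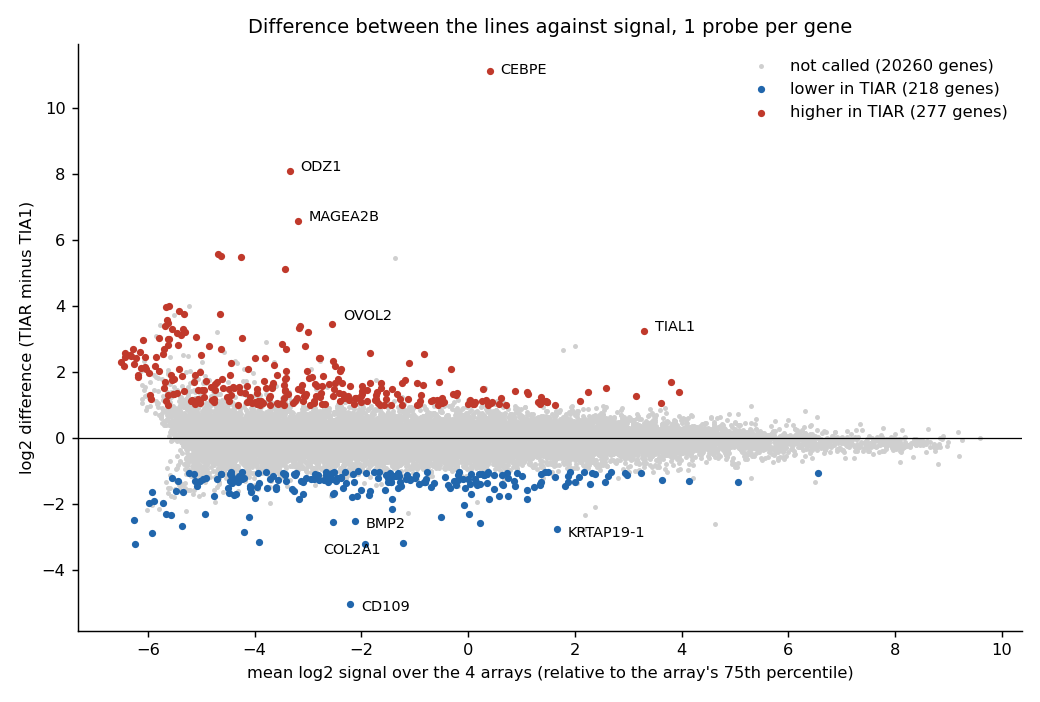
Log2 difference between TIAR- and TIA1-expressing cells (y axis) against the mean log2 signal over the 4 arrays (x axis), 1 point per gene by its brightest tested probe. Red points are the 277 genes called higher and blue points the 218 called lower; CEBPE at 11.14 and CD109 at -5.02 lie farthest from 0 among the labelled genes, and for genes not above background in a line, such as ODZ1 and MAGEA2B, the point is a fitted value for which the text gives a bound.

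The transcription factor CEBPE, known for its role in granulocyte maturation, differed most. It read 5.84 and 6.11 on the TIAR arrays and -4.92 and -5.42 on the TIA1 arrays, where 1 of 2 values was well above background. HuR arrays read 6.57 and 6.47, and GFP arrays 5.73 and 6.05. Of the 4 lines, TIA1-expressing cells thus stood alone. The difference was 11.14 (standard error 0.22, adjusted p = 0.00417, limma) and lay between 9.50 and 11.39 under the alternatives. The other 6 C/EBP family members and partners tested were not called. LOC100128908 (chr14:23569631-23569690), which neighbours CEBPE (chr14:23586547-23586606), was also higher in TIAR-expressing cells. It did not rise well above background on the TIA1 arrays and read -2.06 and -1.67 on the TIAR arrays and -1.48 and -1.51 on the HuR arrays. Such probes have only a bound, here at least 12.3-fold. For it, the dim line was given on each array the lowest signal of any probe well above background, or the measured signal where that was higher. The limma p of such a probe belongs to the fitted difference and not to the bound, and is not given.

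Other genes without a signal well above background in TIA1-expressing cells were among the 12 largest differences. ODZ1 (now TENM1), a teneurin of neuronal membranes, read 0.65 and 0.75 on the TIAR arrays, at least 73.0-fold higher. It read -5.60 and -6.26 on the HuR arrays and -3.75 and -3.96 on the GFP arrays, so TIAR-expressing cells stood above the other 3 lines. RAB17, a small GTPase of epithelial membrane traffic, read -1.52 and -1.48 on the TIAR arrays, at least 15.8-fold higher, and its second probe was at least 2.34-fold higher. On the GFP arrays RAB17 read -1.81 and -2.33, near the TIAR arrays, and on the HuR arrays -4.14 and -4.23. RBP4, the plasma carrier of retinol, was at least 6.54-fold higher, a call lost with quantile normalization. KCNK2, a mechanosensitive potassium channel, was at least 3.70-fold higher and PTPLAD2 (now HACD4), an enzyme of very long chain fatty acid synthesis, at least 3.55-fold. The unannotated transcript XLOC_002713 was at least 4.14-fold higher, a call that held under 1 of 11 alternatives.

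Of 10 tested cancer-testis antigens of the MAGE and CSAG families, 7 were called higher in TIAR-expressing cells. MAGE proteins are binding partners of ubiquitin ligases. Their cancer-testis members, most of them on chromosome X, are normally transcribed in germ cells and silent in other tissues. MAGEA2B read 0.19 and 0.02 on the TIAR arrays and did not rise well above background on the TIA1 arrays. It was at least 48.2-fold higher, with at least 3.30-fold at its second probe. HuR arrays read -5.50 and -5.46 and GFP 2 read -6.39, so TIAR-expressing cells alone had a high level. MAGEA12 read -0.75 and -0.99 on the TIAR arrays, at least 24.5-fold higher. CSAG2, for which the array design gives no position, read -2.02 and -1.74, at least 12.2-fold higher. MAGEA6 read -1.38 and -1.40 on the TIAR arrays and -5.04 and -4.20 on the TIA1 arrays. The MAGEA6 difference was 3.23 (standard error 0.30, adjusted p = 0.0262, limma), and its second probe was at least 12.5-fold higher. Because the printed probes differ at only 3 bases in their overlap, a probe of this family can bind the RNA of another member, and which member was expressed remains uncertain.

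The other called members were CSAG1 (2.55, adjusted p = 0.024, limma), MAGEA4 at at least 1.47-fold and MAGEC2 at at least 1.66-fold. The bounds of MAGEA4 and MAGEC2 fall short of the 2-fold limit, which only their fitted differences pass. Of 23 listed genes, 19 were on the array and 10 were tested, with 0 called lower. Of the 10, 8 were tested only because of their signal in TIAR-expressing cells, so this count had to lean that way. Over all 20755 gene names, by the brightest tested probe, 277 were higher (1.33%) and 218 lower (1.05%). The median of the 10 was 2.63, or 1.64 with the genes that were below background in TIA1-expressing cells set at their bound, against -0.02 over all genes. Of 7 MAGE genes with broad expression, MAGEH1 was called higher (1.01, lost with normexp correction) and the median was 0.08. Chromosome X as a whole had 31 of 718 genes called higher (4.32%) and 3 lower (0.42%), with a median of 0.03. In the RefSeq table for GRCh38.p14, which holds 9 of the 10 tested genes, CSAG1 and MAGEA12 start 36 bases apart and run in opposite directions, at 152733721 and 152733757 of chromosome X. The 250 bases before the start of MAGEA6, at chrX:152769690-152769939 on the minus strand of that build, are printed as an example of the upstream sequence of a gene of this group. Capitals mark CG, the site of DNA methylation, which was not measured. The stretch holds 15, and 42.9% of the 35116 promoters in the table hold at least as many. It does not stand for the group, since the 9 genes ran from 1 (MAGEB1) to 17 (CSAG3), with 5 for MAGEA12. The median over all promoters was 11.
MAGEA6 upstream: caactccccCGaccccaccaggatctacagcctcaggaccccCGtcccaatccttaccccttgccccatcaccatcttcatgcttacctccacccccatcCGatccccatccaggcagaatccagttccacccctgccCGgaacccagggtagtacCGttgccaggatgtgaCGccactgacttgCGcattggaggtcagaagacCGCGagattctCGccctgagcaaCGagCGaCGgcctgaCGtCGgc

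Genes of epithelial cells were called only toward TIAR-expressing cells, with 7 of 31 tested members higher and 0 lower, against 1.33% higher and 1.05% lower over all genes. Of the 31, 5 were tested only because of their signal in TIAR-expressing cells, so the count leans that way. This and the other lists were chosen with earlier results of these data known, so counts by list are a description. The median was 0.50, or 0.42 with members below background in TIA1-expressing cells set at their bound. OVOL2, a zinc finger repressor that keeps epithelial cells from turning mesenchymal, read -0.80 and -0.84 on the TIAR arrays and -4.29 and -4.28 on the TIA1 arrays. HuR arrays read -1.35 and -1.48 and GFP arrays -1.84 and -1.28, nearer to TIAR. The OVOL2 difference was 3.47 (standard error 0.11, adjusted p = 0.0056, limma). C1orf172 (now KDF1), a regulator of keratinocyte differentiation, read -0.65 and -0.45 against -3.14 and -3.13, a difference of 2.59 (adjusted p = 0.014). SPINT1, an inhibitor of the membrane serine proteases that mature hepatocyte growth factor, differed by 1.69, and the membrane-anchored serine protease PRSS8 by 1.58. E-cadherin (CDH1), the adhesion protein of epithelial junctions, differed by 1.33 (adjusted p = 0.040), and the splicing factor ESRP2 by 1.10. CDH1 and ESRP2 lie in the block on chromosome 16 described below. EPCAM differed by 0.85 (adjusted p = 0.060) and was not called. Among 14 mesenchymal genes SPARC was lower, 0 were higher and the median was -0.07.

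CD109, a membrane protein that binds TGF-beta and dampens its signaling, was lower in TIAR-expressing cells. It read -4.62 and -4.81 on the TIAR arrays, 0.33 and 0.28 on the TIA1 arrays, 0.48 and 0.58 on the HuR arrays, and -0.67 and 0.06 on the GFP arrays. TIAR-expressing cells stood below all other lines. The difference was -5.02 (standard error 0.13, adjusted p = 0.00448, limma), and CD109 was called under 9 of 12 alternatives, from -5.12 to -3.66. LOC100506740 (chr6:74404025-74404084), near CD109 (chr6:74537828-74537887), was at least 2.23-fold lower, a call that held under 3 of 11 alternatives. BMP2, a ligand of the bone morphogenetic protein pathway, read -3.44 and -3.28 on the TIAR arrays and -0.94 and -0.80 on the TIA1 arrays. It read -5.02 and -4.94 on the HuR arrays and -4.07 and -4.60 on the GFP arrays, so both TIA lines lay above the other 2 and TIA1 above TIAR. The BMP2 difference was -2.49 (standard error 0.13, adjusted p = 0.0143). SMAD6, an inhibitor of that pathway, differed by -1.23 (adjusted p = 0.025). CD109, BMP2 and SMAD6 were the 3 members called lower of 38 BMP and TGF-beta genes (7.89%, against 1.05% over all genes). In this list 0 were called higher and the median was -0.22. The pathway's target genes ID1, ID2, ID3 and ID4 differed by -0.44, -0.999, -0.65 and -0.66 and were not called.

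Genes of the extracellular matrix were called mostly in the same direction. COL2A1, the collagen chain of cartilage, read 0.25 and 0.48 on the TIA1 arrays and -2.75 and -2.88 on the TIAR arrays. GFP arrays read 1.30 and 1.93 and HuR arrays -5.67 and -5.74, so TIAR-expressing cells lay between HuR and the other lines. The COL2A1 difference was -3.18 (standard error 0.14, adjusted p = 0.0114, limma). SPARC, a collagen-binding matrix protein, read -2.44 and -2.28 on the TIA1 arrays and -5.60 and -5.39 on the TIAR arrays, a difference of -3.13 (adjusted p = 0.0114). The HuR arrays read -5.72 and -5.93 and the GFP arrays -1.38 and -1.38, the same order of lines as for COL2A1. EMILIN2, an elastic fibre protein, differed by -1.48 and LAMA1, a laminin chain of basement membranes, by -1.02. DCN, the proteoglycan decorin, was the member called higher (1.08), a call that held under 1 of 12 alternatives. In all 4 of 40 matrix genes were lower (10%) and 1 higher (2.5%), with a median of -0.11. The shares over all genes were 1.05% and 1.33%.

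Keratin-associated proteins cross-link keratin in hair. In TIAR-expressing cells 4 of the 11 tested from chromosome 21 (36.4%) were called lower, against 1.05% over all genes. KRTAP19-1 read 3.14 and 2.95 on the TIA1 arrays and 0.20 and 0.37 on the TIAR arrays, a difference of -2.76 (standard error 0.14, adjusted p = 0.0143, limma). The HuR arrays read -1.09 and -1.26 and the GFP arrays 0.48 and 1.10, so TIA1-expressing cells alone were high. KRTAP20-2 read 1.51 and 1.51 on the TIA1 arrays and -0.97 and -1.12 on the TIAR arrays, with -0.54 and -0.62 on the GFP arrays. KRTAP21-2 and KRTAP19-5 differed by -1.37 and -1.32. The other members were not called and lay between -0.98 and -0.05, and the median of all 11 was -0.85. HSPA13, a microsomal HSP70 protein, and RBM11, a tissue-restricted splicing factor, lie on the same chromosome and differed by -1.44 and -1.78. Chromosome 21 had 14 of 268 genes called lower (5.22%) and 4 higher, with a median of -0.18. HLA-DOA, which modulates peptide loading onto class II molecules, read -0.33 and -0.35 on the TIA1 arrays and -3.40 and -3.66 on the TIAR arrays, a difference of -3.19 (adjusted p = 0.0114).

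**Figure D2:**
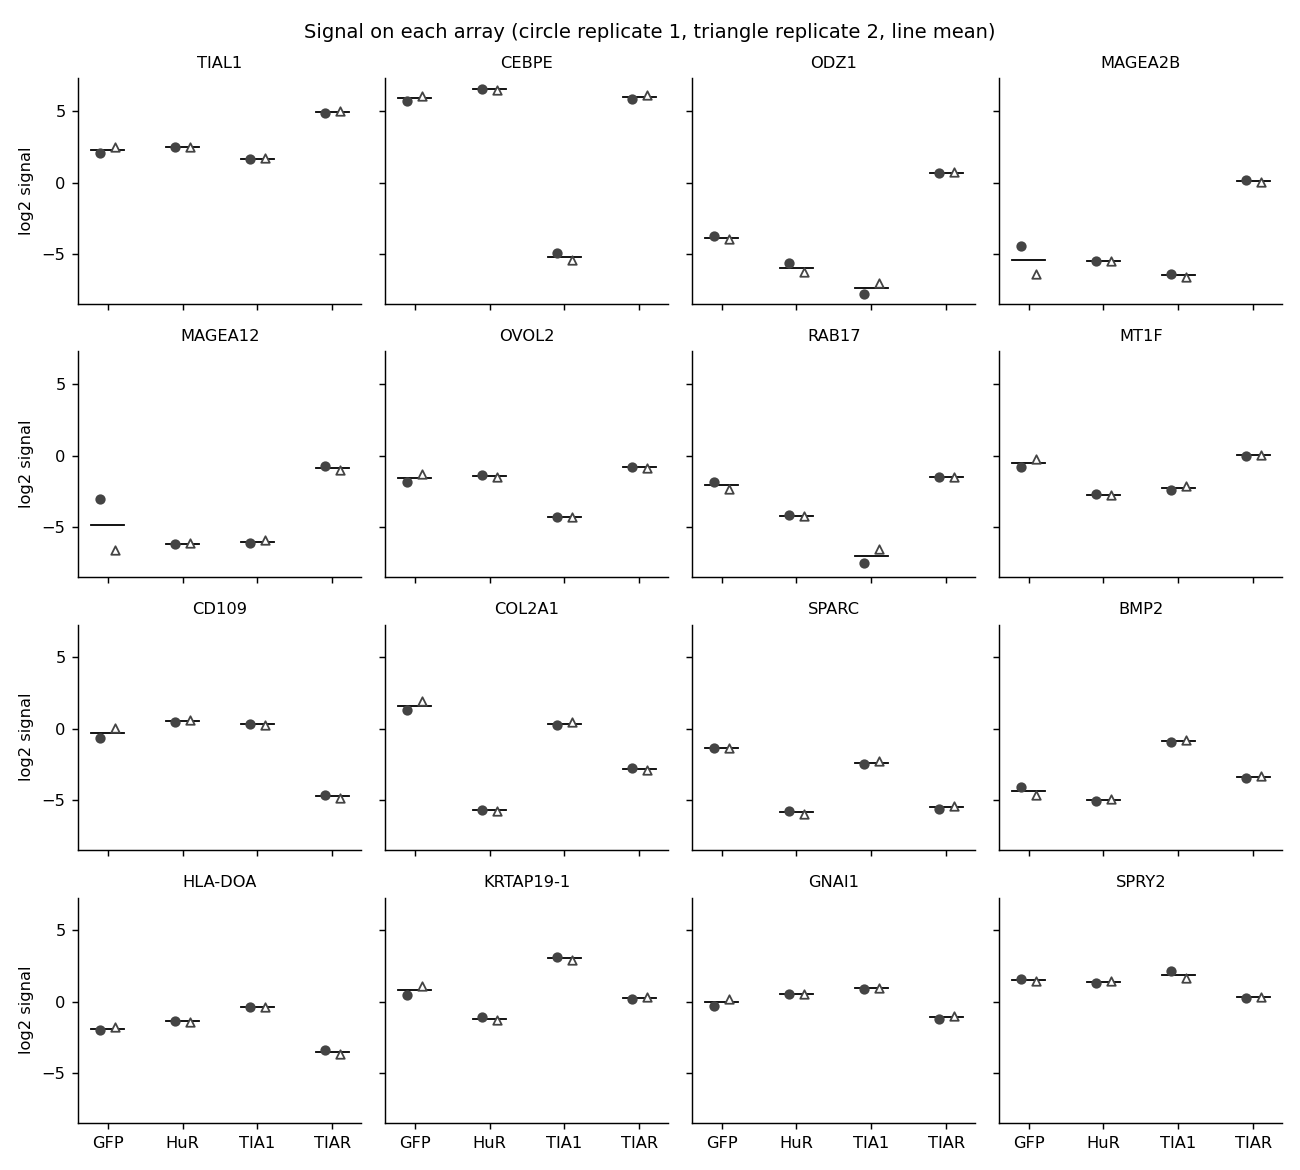
Log2 signal relative to the array's 75th percentile (y axis) of 16 named genes on each array of the 4 lines (x axis), circles for replicate 1, triangles for replicate 2 and a line for the mean. CEBPE was low in TIA1-expressing cells, ODZ1 and MAGEA2B were high in TIAR-expressing cells, CD109 was low in TIAR-expressing cells and KRTAP19-1 was high in TIA1-expressing cells.

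Metallothioneins, small proteins that bind zinc and copper, had a median of 0.64 over 10 list members, of which 9 lie in the block on chromosome 16. MT1F was called higher, with -0.01 and 0.08 on the TIAR arrays against -2.38 and -2.10 on the TIA1 arrays, a difference of 2.27 (adjusted p = 0.0182, limma). MT2A (0.67) and MT1X (0.70) were not called. The ATF4 response restores amino acid supply under stress. Of 38 genes listed for it, 3 were higher (7.89%, against 1.33% over all genes) and 0 lower, with a median of 0.28. These were the stress protein NUPR1 (1.53), the mitochondrial gluconeogenic enzyme PCK2 (1.47) and the alanyl-tRNA synthetase AARS (1.05), of which PCK2 and AARS lie in blocks. ATF4 itself differed by 0.05. Replication-dependent histones had a median of -0.58 over 53 genes, and the median over the alternatives ran from -0.79 to -0.24. HIST1H4J (-2.14) and HIST1H2BM (-1.07) were called lower (3.77% of the list, against 1.05% over all genes) and 0 higher. S phase genes (46, median -0.02) and G2/M genes (45, median -0.04) had 0 called members by limma, and TK1 and MCM7 differed by -0.16 and -0.38.

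Genes of neural development moved both ways, with 5 of 34 higher and 5 lower (14.7% each) and a median of -0.22. Of the 34, 3 were tested only because of their signal in TIAR-expressing cells, ODZ1 and KCNK2 among them. Another 2 were tested only because of their signal in TIA1-expressing cells. Each count therefore leans toward its own direction. For this list and those that follow, the shares over all genes were 1.33% higher and 1.05% lower. Beside ODZ1 and KCNK2, the muscarinic receptor CHRM3 (3.39, adjusted p = 0.0182, limma), the early neural factor SOX3 (2.44) and the differentiation factor NEUROD2 (1.82) were higher. Lower were the G protein subunit GNAI1 (-2.02), the T-type calcium channel CACNA1H (-1.85), the LIM factor LMO1 (-1.37), the motor neuron factor ISL1 (-1.35, well above background on 1 of 2 TIAR arrays) and the synaptic vesicle protein VAMP1 (-1.32). In WNT signaling, RSPO4, which strengthens WNT signals, was higher (2.71, adjusted p = 0.0182), as was the secreted WNT inhibitor WIF1 (1.61), and the ligand WNT5A was lower (-1.13). The median of 42 WNT genes was 0.05. Among 31 genes of receptor tyrosine kinases and ERK feedback, the receptor FGFR3 (-1.11, with -1.12 at its second probe) and the feedback inhibitor SPRY2 (-1.58) were lower, 0 were higher and the median was 0.21. In the list for fatty acid oxidation and the peroxisome, 3 of 40 genes were higher and 0 lower, with a median of 0.11. These were ECHDC2 (2.09), glycerol kinase GK (1.77, called at 2 of 4 probes) and PTPLAD2, which serves fatty acid synthesis and not oxidation. TSPO, the cholesterol-binding protein of the outer mitochondrial membrane, was higher (1.70, adjusted p = 0.0227), the 1 called member of 29 sterol and fatty acid synthesis genes. Interferon and antigen presentation genes had 2 of 43 higher, OASL at at least 1.63-fold and IFIT2 (1.01), and 2 lower, HLA-DOA and IFITM1 (-1.82, with -0.86 at its second probe). EDA2R (2.04) was the 1 called member of 38 p53 targets, which had a median of -0.11, and HOXB1 that of 35 HOX genes, at least 1.23-fold higher with a median of -0.16. The OASL call held under 0 of 11 alternatives, that of IFIT2 under 1 of 11, that of HOXB1 under 2 of 11 and that of EDA2R under 3 of 12. The bounds of OASL and HOXB1 fall short of the 2-fold limit, which only their fitted differences pass. OASL, IFIT2, HOXB1 and PTPLAD2 were tested only because of their signal in TIAR-expressing cells. The counts of genes called higher in their lists lean that way. The calls of WIF1 and WNT5A were lost with the authors' values.

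**Figure D3:**
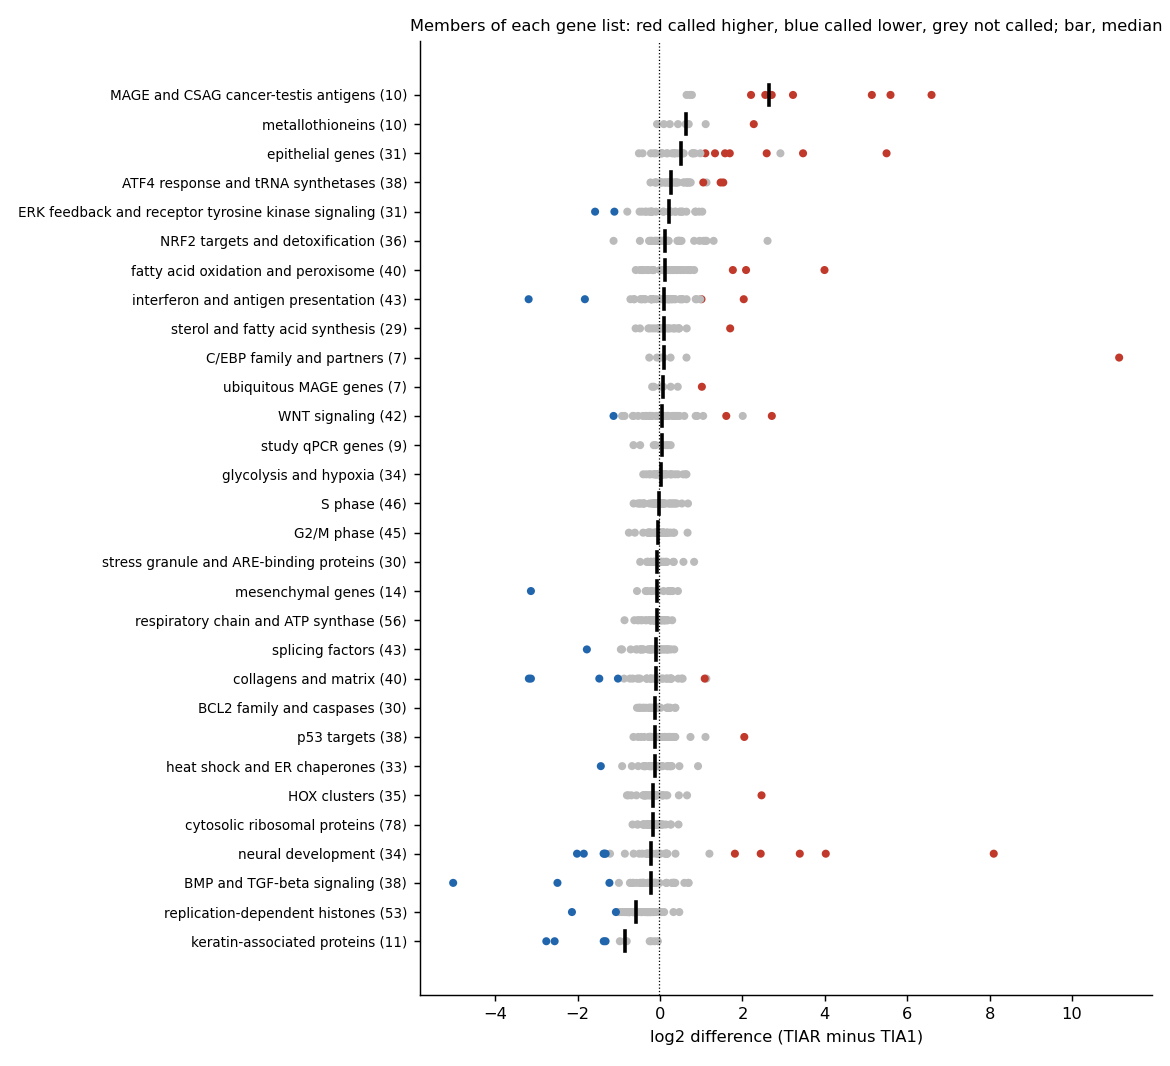
Log2 difference (x axis) of every tested member of each gene list (y axis, number tested in parentheses), red for called higher, blue for called lower and grey for not called in TIAR-expressing cells, with a bar at the list median and a dotted line at the median over all genes, -0.02. The MAGE and CSAG genes lie at a median of 2.63, but 8 of the 10 were tested only because of their signal in TIAR-expressing cells, and their median with bounds is 1.64; the keratin-associated proteins lie at a median of -0.85.

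Over all genes 1.33% were called higher and 1.05% lower, so short lists hold few calls or none, and the counts of genes close to the known work of TIA proteins are given as a description. Limma called 0 of 30 stress granule and AU-rich element binding proteins (median -0.07), with KHSRP at -0.29 and PABPC1 at -0.03. Of 43 splicing factors, RBM11 was lower and the median was -0.09. BCL2 family members and caspases (30, median -0.11), NRF2 targets (36, median 0.12), glycolysis (34, median 0.03), cytosolic ribosomal proteins (78, median -0.16) and the respiratory chain (56, median -0.08) had 0 called members. Among 33 heat shock and ER chaperone genes HSPA13 was lower and the median was -0.12. The genes of the qPCR list that are reported here had 0 calls by limma and lay between -0.65 and 0.19. CDKN1A, the inhibitor of G1 cyclin-dependent kinases, read -2.08 and -2.08 on the TIA1 arrays and -2.73 and -2.72 on the TIAR arrays, a difference of -0.65 (standard error 0.11, adjusted p = 0.0562, limma). The arrays of the lines did not overlap for CDKN1A, and the fold of 1.56 was under the limit. MYC differed by -0.48, CCND1 by 0.19, EIF4E by 0.14, HMGN5 and NUP98 by 0.05 each, GADD45B by -0.11 and BAX by -0.15. A p that misses the limit does not show that the lines had the same level.

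Differences between the lines were also shared by neighbouring genes along parts of several chromosomes. Of the 20556 genes with a position, 20300 filled 812 windows of 25 neighbours. Genes left over in incomplete windows at chromosome ends were counted as outside the blocks. The standard deviation of the window medians was 0.156 between the lines, against 0.063 between the TIA1 arrays and 0.066 between the TIAR arrays. The value between the lines is for differences of 2-array means and the others are for differences of single arrays, so their noise is unlike. A block was defined on the replicate 1 arrays alone as a run of at least 3 windows in a row whose medians all lay beyond 0.2 in the same direction, and neighbouring runs of this kind with 1 window between them were joined. The replicate 2 arrays took no part in this rule. This gave 8 blocks with 1850 genes (9% of those placed). On the replicate 2 arrays, the medians of all 8 blocks had the direction seen on the replicate 1 arrays, as given below without a test, since an exact permutation test of 2 against 2 arrays cannot go below 0.333. In the blocks 67 genes were called lower and 44 higher, and outside them 150 and 231. These calls were 6% of the genes in blocks and 2.04% of those outside. These calls also rest on the replicate 1 arrays that chose the blocks, so counts of calls in blocks are a description. The median outside the blocks was -0.01.

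**Figure D4:**
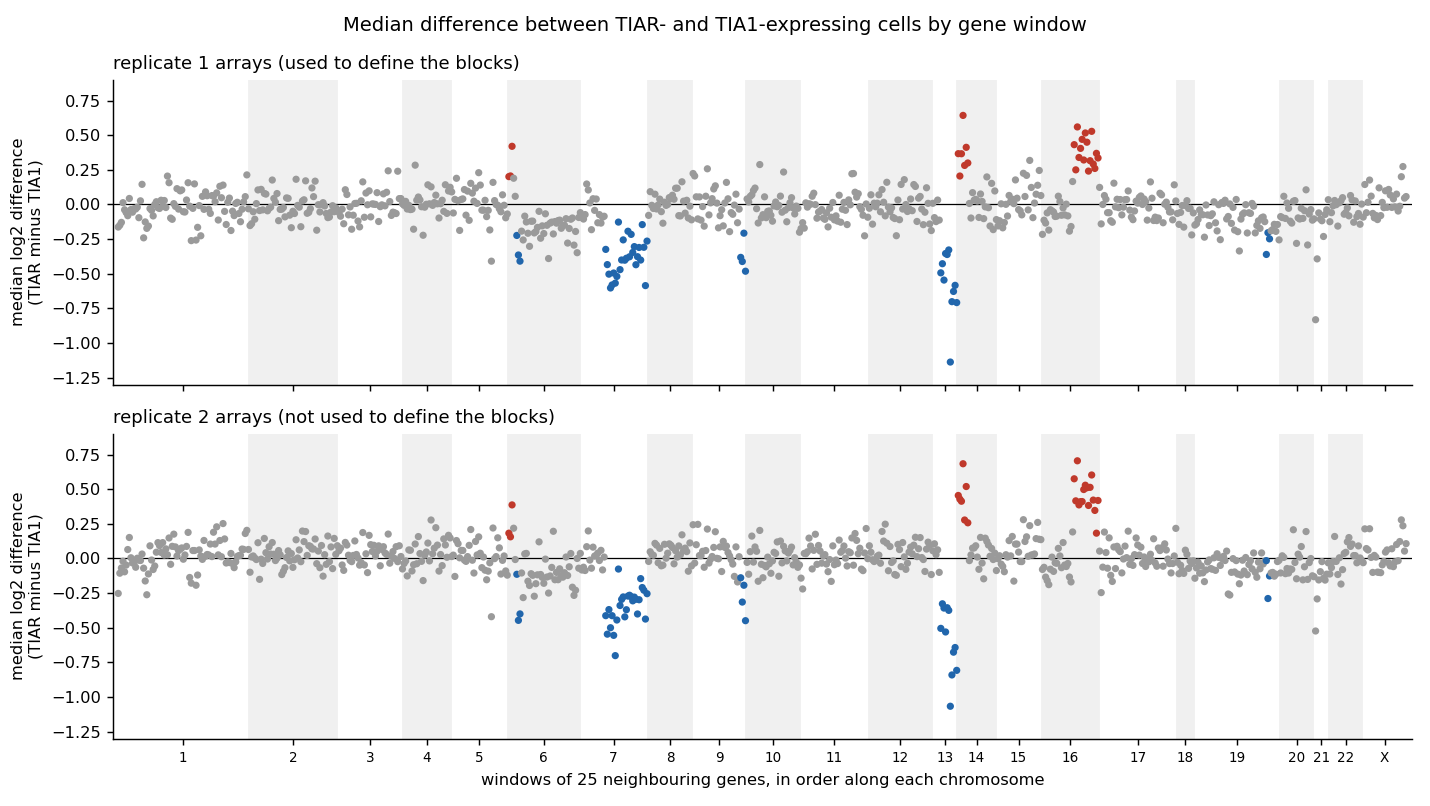
Median log2 difference between TIAR- and TIA1-expressing cells (y axis) in windows of 25 neighbouring genes ordered along chromosomes 1 to 22 and X (x axis), from the replicate 1 arrays (top) and the replicate 2 arrays (bottom); red and blue points are windows in blocks and grey points the other windows. The windows in the blocks of chromosomes 7 and 13 lie below 0 and those in the blocks of chromosomes 14 and 16 above 0 on both pairs of arrays.

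The largest shift was on chromosome 13 from 38.1 to 115.1 Mb, where 275 genes had a median of -0.53 on the replicate 1 arrays and -0.56 on the replicate 2 arrays. In this block 222 of the 275 genes (80.7%) had a lower signal in TIAR-expressing cells on the replicate 2 arrays, and 44 genes were called lower and 4 higher. The remaining 125 genes of chromosome 13 had a median of 0.00, with 0 called lower. The median over both pairs, -0.55, is a fold of 1.47, and the genes of higher and of lower signal had medians of -0.64 and -0.45. The lowest window of the genome, from 76.4 to 95.2 Mb, had a median of -1.10 with 13 of its 25 genes called lower. Called members included DIS3, a catalytic subunit of the RNA exosome (-1.85, adjusted p = 0.0234, limma), and the repressor KLF12 (-1.84, adjusted p = 0.0243, with -1.36 at its second probe). DIS3 read -4.04 and -4.17 on the TIAR arrays and -2.10 and -2.40 on the TIA1 arrays, and KLF12 -0.70 and -0.35 against 1.31 and 1.33. SPRY2, described above, lies in the same block and read 0.28 and 0.34 on the TIAR arrays against 2.13 and 1.64 on the TIA1 arrays. The unannotated transcript XLOC_010622 was at least 2.08-fold lower, a call that held under 2 of 11 alternatives.

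On chromosome 7 from 64.4 to 156.3 Mb, 675 genes had medians of -0.37 and -0.33 on the replicate 1 and replicate 2 arrays, and 552 (81.8%) were lower on the latter. Limma called 19 of them lower and 2 higher, while the remaining 421 genes of the chromosome had a median of -0.04. GNAI1 was among those called lower, with -1.18 and -0.99 on the TIAR arrays against 0.90 and 0.96 on the TIA1 arrays. The muscarinic receptor CHRM2 (3.06, adjusted p = 0.0404), well above background on 1 of 2 TIA1 arrays, went against the block. Near the end of chromosome 9, from 137.0 to 140.5 Mb, 100 genes had medians of -0.39 and -0.25, with 3 called lower, among them EXD3 at 1 of its 2 probes (-1.28), and the remaining 761 genes of the chromosome had a median of 0.01. Chromosome 19 from 51.3 to 54.6 Mb, rich in zinc finger genes, had medians of -0.25 and -0.14 over 75 genes and 0 calls, while the remaining 1289 genes of the chromosome had a median of -0.08. ZNF600 there differed by -0.89, with -1.60 at a second probe that was well above background on 1 of 2 TIAR arrays. ZNF880 differed by -1.12 at its brightest probe (adjusted p = 0.0518) and by -0.43 and -0.29 at the others, none of which was called.

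On chromosome 16 from 47.2 to 90.0 Mb, 400 genes had medians of 0.38 and 0.47. Of these, 339 (84.8%) were higher on the replicate 2 arrays, and 24 were called higher and 1 lower. The remaining 512 genes of the chromosome had a median of -0.05. Beside MT1F, CDH1, ESRP2 and AARS, the block held LDHD, a mitochondrial D-lactate dehydrogenase (at least 4.63-fold higher), and the metalloprotease ADAMTS18 (2.44, adjusted p = 0.0191, limma, well above background on 1 of 2 TIA1 arrays). On chromosome 14 from 19.6 to 39.5 Mb, 175 genes had medians of 0.36 and 0.45, with 150 (85.7%) higher on the replicate 2 arrays and 12 called higher and 0 lower, while the remaining 434 genes of the chromosome had a median of 0.01. This block held CEBPE, LOC100128908, PCK2 and LOC100129794 (now SLC25A21-AS1, 2.03). Chromosome 6 had 2 short blocks of 75 genes each. From 0.24 to 8.65 Mb the medians were 0.22 and 0.32, with FOXQ1 (1.14) and PPP1R3G (1.03) called higher, calls that held under 2 and 1 of 12 alternatives. From 17.6 to 26.5 Mb they were -0.36 and -0.27, a block that held 30 of the 53 tested histone genes and 0 called genes. The remaining 984 genes of chromosome 6 were shifted too, with a median of -0.13 and 11 called lower and 8 higher. All 8 block medians kept their direction under the 13 settings, with the main one counted, and the median on chromosome 13 ran from -0.56 to -0.42. The arrays measured RNA only, and the number of DNA copies of these regions in the lines was not measured.

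The other lines placed these shifts in different lines. Relative to GFP 2, the median of the chromosome 13 block was -0.54 on both TIAR arrays, -0.02 and 0.04 on the TIA1 arrays, and -0.36 and -0.35 on the HuR arrays. TIA1-expressing cells thus lay with GFP 2 there, and TIAR- and HuR-expressing cells lay below. On chromosome 7 the TIA1 arrays stood at 0.37 and 0.42 while the TIAR arrays (0.01 and 0.09) and the HuR arrays (0.00 and -0.02) lay near GFP 2. Chromosome 9 was alike, with 0.31 and 0.36 on the TIA1 arrays and -0.05 and 0.10 on the TIAR arrays, as was chromosome 19, with 0.33 and 0.31 against 0.08 and 0.13. On chromosome 14 the TIA1 arrays stood at -0.32 and -0.33, with the TIAR arrays at 0.03 and 0.13 and the HuR arrays at 0.02 and 0.03. On chromosome 16 the TIA1 arrays (-0.31 and -0.32) and the HuR arrays (-0.37 and -0.36) were both below the TIAR arrays (0.01 and 0.07). In the first block of chromosome 6 the TIAR arrays stood at 0.20 and 0.25 and the TIA1 arrays at 0.01 and -0.06. In its second block the replicate arrays of each line lay apart, at -0.08 and 0.16 for TIA1 and -0.26 and -0.09 for TIAR. Outside the blocks the medians of these arrays relative to GFP 2 lay between -0.04 and 0.07.

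**Figure D5:**
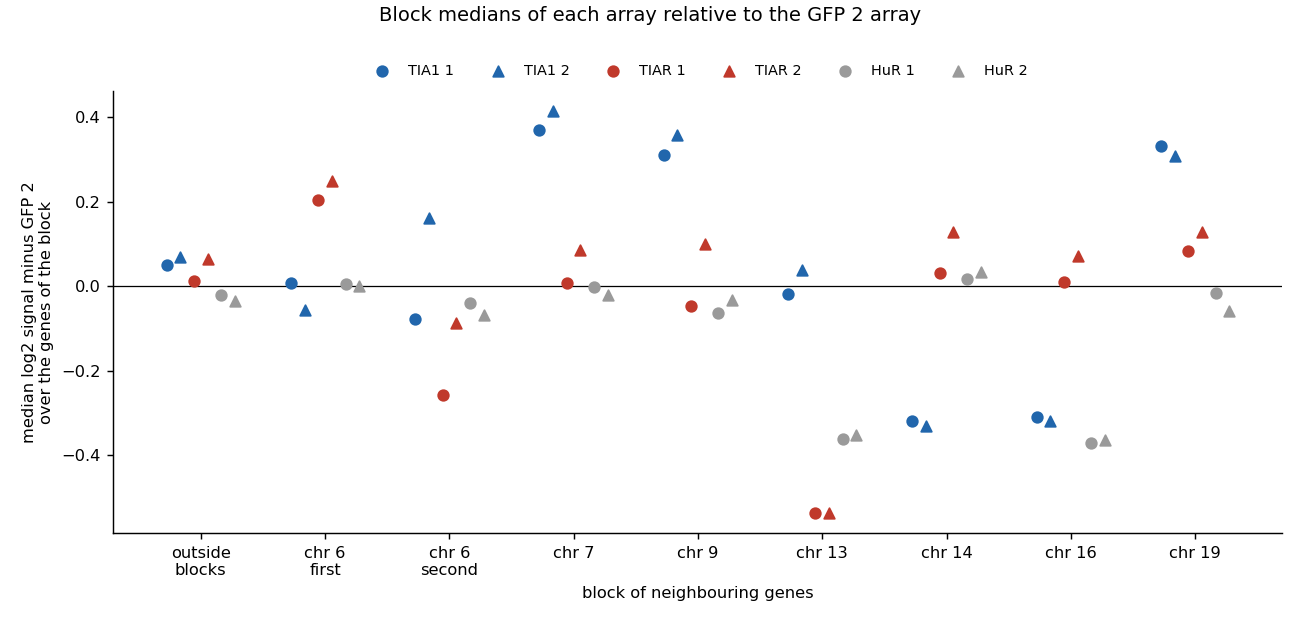
Median log2 signal minus that of the GFP 2 array (y axis) over the genes of each block of neighbouring genes and over genes outside the blocks (x axis), with circles for replicate 1 and triangles for replicate 2 arrays of TIA1 (blue), TIAR (red) and HuR (grey). TIA1 arrays lie above 0 on chromosomes 7, 9 and 19 and below 0 on chromosomes 14 and 16, and TIAR arrays lie lowest on chromosome 13.

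The same view over single genes showed departures in each TIA line. HuR and GFP 2 took no part in the calls. Of the 277 genes called higher, both the HuR mean and GFP 2 were nearer the TIA1 mean for 115, as for ODZ1, and nearer the TIAR mean for 80, as for CEBPE. Of the 218 genes called lower, both were nearer the TIAR mean for 122, as for KRTAP19-1, and nearer the TIA1 mean for 47, as for CD109. For the remaining genes with a GFP 2 value, HuR and GFP 2 lay on different sides, 51 and 30 of those called higher and 9 and 40 of those called lower. With the mean of both GFP arrays in place of GFP 2, GFP was nearer TIA1 for 109 and nearer TIAR for 167 of the genes called higher, against 145 and 131 with GFP 2 alone. Among genes called lower these counts were 101 and 117, against 87 and 131.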

How the data were processed

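RNA of FT293 cells was labeled with Cy3 and hybridized to 8 one-colour human arrays, of which the 2 TIAR and 2 TIA1 arrays were compared. The deposited processed signals are intensity values made with Feature Extraction 10.7.3.1, background-subtracted within each array and without normalization across arrays. For the series the authors also deposited log2 values, which are quantile-normalized, with the TIAR arrays sharing a distribution of their own. The settings of that normalization are not given in the sources used here, and limma is named in the submitters' processing notes.

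Processed signals were log2-transformed, the 75th percentile of each array was subtracted, spots marked as outliers were dropped and repeated spots averaged. Tests were made with limma 3.58.1 (lmFit and eBayes) in R 4.3.3, without covariates, and p-values were adjusted over 28016 probes by the Benjamini-Hochberg method. Lists and blocks use, for each gene, its brightest tested probe by the mean of the 4 arrays. Gene names are those of the array design, and 20539 tested probes matched a current RefSeq symbol. Positions come from the array design (hg19), except where the RefSeq promoter table (GRCh38.p14) is named. No genome was used, so probes are not placed in exons or untranslated regions. The precision is limited by the number of arrays, 2 per line. On simulated data of 28016 probes, noise was drawn for each probe on its own and all added changes exceeded the 2-fold limit. There limma recovered 140 of 200 changed probes, with 4 false calls among the unchanged ones. No effect shared by a line or a slide row was simulated, so these counts do not measure the error of the real calls. Plots were drawn with matplotlib 3.10.9.

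The members, the 31 lists and the naming rule were chosen with earlier results of these data known. Named are TIAL1, TIA1 and ELAVL1, the 12 called genes with the largest difference in each direction, up to 4 called members of each list, up to 2 bright members of lists without a call, the genes measured by qPCR and up to 4 members of each block. Not every gene that the rule gives is reported here. CSAG1, MAGEA4, MAGEC2, PRSS8, CDH1, ESRP2, LAMA1, CACNA1H, LMO1, ISL1, VAMP1, NEUROD2, EPCAM, ATF4, MT2A, MT1X and the ID genes were named after their values were seen. Same-numbered arrays deviated together with a correlation of 0.153 across probes, which with 2 pairs does not establish a pairing. Alternatives were normexp background correction (offset 50), quantile normalization, both together, the authors' values, dim probes kept, only probes that exceeded background well on all 4 arrays, a fit to all 8 arrays, a replicate block, leaving out single arrays, no limit on the fold, the paired test of the study's methods and, added after the data were seen, genes outside the blocks.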

Additional observations from a re-analysis of the deposited data

How the results depend on the processing

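Against 324 gene names higher and 285 lower in TIAR-expressing cells, limma called 127 and 137 with normexp background correction, 135 and 146 with normexp and quantile normalization together, 142 and 152 with the authors' values, 166 and 158 with all 8 arrays in the fit, and 204 and 272 for probes well above background on all 4 arrays. Of these, 117 and 121 were among the main calls with normexp and 122 and 134 with the authors' values. Higher calls were 53.2% of all calls, and 42.9% for probes well above background on all 4 arrays. Quantile normalization gave 292 and 295. Without a filter on dim probes, which moved the median of all probes to -0.11, limma called 0 and 0 of 50493 probes, with 5860 at an unadjusted p under 0.05. Without a limit on the fold, 453 and 450 gene names passed. Leaving out 1 array gave 0 to 22 higher and 0 to 7 lower. Outside the blocks, a setting chosen after seeing the data, 237 and 171 remained. The share of probes at least 2-fold apart, 4.37%, became 1.53% with normexp, 1.56% with normexp and quantile normalization, 1.59% with the authors' values, 6.40% without the filter, 2.79% for probes above background on all 4 arrays and 4.48% to 5.83% without 1 array. The cause of these moves was not tested.

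With the replicate number as a block, limma called 0 higher and 0 lower, with 7459 probes at an unadjusted p under 0.05, and the numbers were not shown to pair the arrays. The paired test of the study's methods gave 201 and 202 gene names at its unadjusted limit and 0 and 0 after Benjamini-Hochberg adjustment. With 2 arrays per line, the counts of calls depend on each of the 4 arrays, and for 109 called probes the TIA1 arrays and for 31 the TIAR arrays gave only a bound.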

Other observations

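Outside the blocks, the window of 25 genes on chromosome 21 from 17.3 to 28.2 Mb had a median difference of -0.63, with -0.83 on the replicate 1 arrays and -0.52 on the replicate 2 arrays and 5 genes called lower. The next window, from 29.5 to 32.1 Mb with the keratin-associated proteins, had a median of -0.24 with 4 genes called lower, and 3 windows in a row are needed for a block. Relative to the HuR arrays, the median of this window was 1.20 for TIA1 and 0.25 for TIAR.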
